A study of Mus musculus with 9 samples.

Results

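The 10 genes described here encode integrin subunits of macrophages: Itgam, Itgax, Itgal, Itgb2, Itga4, Itgb7, Itga5, Itga6, Itgav and Itgb1. They were taken by gene symbol, by a rule that uses no measured value, from the 25494 genes of the deposited table, and all 10 were measured. Integrins are cell surface receptors made of 1 alpha and 1 beta subunit, and the pairing decides which ligand is bound. On macrophages the beta-2 integrins bind adhesion molecules of other cells, complement fragments and fibrin, whereas the beta-1 and alpha-v integrins bind fibronectin, laminin and related matrix proteins. Integrins rest in a bent form of low affinity and are opened from inside the cell by talin and kindlin, after which Src-family kinases and Syk carry the signal of the bound receptor inward.

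All libraries were of RNA from mouse bone marrow-derived macrophages deficient in TTP (tristetraprolin, gene Zfp36), an RNA-binding protein that attaches to AU-rich stretches of 3'UTRs and promotes decay of the mRNA. The cells, from mice with the Zfp36 tm1Pjb allele, had grown for 10 days with 10 ng/ml of the growth factor M-CSF and were immortalized with the oncogenes hcmyc and hRasG12V. They were selected for the surface markers CD11b and F4/80, and CD11b is the protein of Itgam, so 1 of the 10 genes had a part in choosing the parental cells. A tet-inducible retroviral vector then added GFP alone (GFP), GFP fused to TTP (TTP) or GFP fused to TTP-AA, which carries S52A and S178A and can no longer be phosphorylated at these serines by the kinase MK2. The vectors held only the coding part of TTP, and GFP-positive cells were sorted, giving 1 transduced line for each construct, so that a difference between constructs and a difference between lines cannot be told apart. Every group received doxycycline at 1 µg/ml for 6 h and LPS (lipopolysaccharide, a bacterial stimulus) at 1 µg/ml for 1 h, and no library without LPS was analysed here. Total RNA depleted of ribosomal RNA was sequenced in 3 libraries per group, 9 in all.

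The values are fitted normalised read counts. The table deposited by the authors held, for each library, the mean that their model assigned to it, built from 1 term for the library, 1 for the replicate number and 1 for the group, and not the count that was read. On the log2 scale the centred table had a rank of 4, against 8 for 9 libraries that vary freely, and no departure from the 3 terms exceeded 1.2e-14. Libraries of the same replicate number therefore moved together exactly, and no scatter within a group was left. For this reason no test was made and no p-value is given: groups are compared by their size of difference, and the SD stated (n = 3) is that between replicate numbers, which all groups share. Being shared, this term drops out of every difference between groups. The SD, and whether groups overlap, therefore only set the size of a difference beside the replicate-number term and do not measure its error. Summed fitted counts were 36295572, 29245475 and 38032238 in GFP, 21482954, 37341972 and 37866269 in TTP, and 33596016, 25504519 and 102613526 in TTP-AA, replicate 3 of the last standing apart, and all values below were scaled by the median of ratios to a common depth. A gene was called when its geometric mean level differed by at least 1.5-fold (0.58 on the log2 scale), and, as a second description that more genes met, when the 3 libraries of 1 group all lay above the 3 of the other. The deposited table showed only small differences for rare genes. Among genes with a mean under 1 the largest difference between TTP and GFP was 0.15 on the log2 scale, so differences of low genes may be understated. In bulk RNA, fewer cells making a transcript and less transcript per cell cannot be told apart.

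The libraries had the expression of macrophages. The 10 macrophage markers were all present and summed to levels of 679449 in GFP, 562237 in TTP and 774464 in TTP-AA. Most of each sum was Lyz2, at 591094, 482090 and 667463. The lowest marker was Mertk, at 19.7, 16.2 and 19.5, and Fcgr1 stood at 662, 285 and 506. No T or B cell marker reached a mean of 10, with 5 of 8 in the table and a summed level between 12.4 and 13.4. Neutrophil and mast cell markers summed to between 152 and 251 with 4 of 8 in the table, dendritic cell markers to between 255 and 312 with 4 of 6, and fibroblast, epithelial and endothelial markers to between 30.4 and 47.5 with 9 of 10. F4/80 (Adgre1), the other marker used to select the cells, was at 16726 in GFP, 9888 in TTP and 26833 in TTP-AA. Zfp36 itself was at 1303, 1332 and 2109. The Zfp36 level thus did not set TTP apart from GFP, and how many of its reads came from the vector or the disrupted gene was not tested, so groups are named as the labels give them.

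TTP binds the motif TATTTAT, written here in DNA letters, and the 3'UTRs of the 10 genes were searched for it on the transcript strand, using 1 transcript per gene, that with the longest coding part (GENCODE M21, GRCm38). It occurred in 6 of the 10 genes (60.0%), against 3105 of 11317 coding genes with a mean of at least 10 (27.4%). The shorter core ATTTA, which every TATTTAT holds, occurred in 7 of the 10 genes (70.0%) against 66.1% of these coding genes. The 9 matches are shown with their neighbouring bases, 30 bases for each, 5′ to 3′ on the strand of the gene, with the motif in capitals, because they show which integrin mRNAs carry the letters that TTP prefers.
Itgb2, chr10:77565516-77565545, plus strand: tggccccaactTATTTATatttaaacttgt
Itga4 first match, chr2:79328128-79328157, plus strand: catttttgtagTATTTATttcatatatgta
Itga4 second match, chr2:79328692-79328721, plus strand: aaatatttttaTATTTATtaataaaactta
Itga5, chr15:103344538-103344567, minus strand: gcttagaaaccTATTTATccctgacttagg
Itga6, chr2:71856615-71856644, plus strand: tttgtatatgaTATTTATttttttcttcaa
Itgav first match, chr2:83804006-83804035, plus strand: agttaggttttTATTTATgtgtagtctgca
Itgav second match, chr2:83805683-83805712, plus strand: tcttatagagaTATTTATtttagagttggt
Itgav last match, chr2:83805868-83805897, plus strand: catgaatacatTATTTATataatgaggaaa
Itgb1, chr8:128733153-128733182, plus strand: ttaactgaagtTATTTATtaaaataaaaag

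The long 3'UTRs of Itga4 (6508 bases, 2 matches) and Itgav (3581 bases, 3 matches) held more than 1 match each. Itgb2 carried 1 match in only 446 bases, at base 287 after the stop codon, and Itgb1 carried 1 near the end of its 3'UTR, at base 1076 of 1112. Itga5 had its match at base 713 of 983 and Itga6 at base 611 of 756. No match lay in the 3'UTR of Itgam (133 bases), Itgax (463 bases), Itgal (773 bases) or Itgb7 (165 bases), nor in that of any other coding transcript of these 4 genes. Itgal did hold 2 copies of ATTTA. The median 3'UTR of the 10 genes was 764 bases long against 955 for all coding genes. A match is only a description of letters and was not tested for binding.

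**Figure D1:**
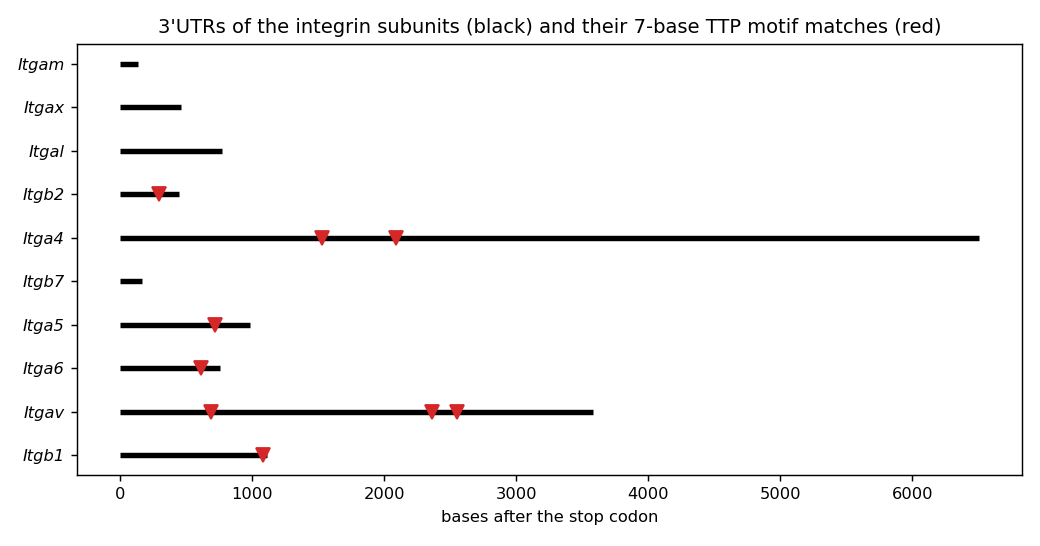
The 3'UTRs of the 10 integrin genes, drawn to scale as black lines in bases after the stop codon, with each TATTTAT match as a red triangle. Matches occurred in 6 genes, with 3 in Itgav and 2 in Itga4, and in none of Itgam, Itgax, Itgal and Itgb7.

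Compared per kb of joined exons, the 10 genes fell into an abundant class of 7 and a rare class of 3. Over all groups, the geometric mean fitted count per kb was 3816 for Itgb1, 3302 for Itgb2 and 1823 for Itgam. The 4 alpha subunits that can pair with beta-1 followed, with 724 per kb for Itga4, 586 for Itgav, 562 for Itga5 and 442 for Itga6. Itgb7, Itgal and Itgax were at 14.5, 13.5 and 3.26 per kb, far under the rest. Within this order Itga4, Itgav, Itga5 and Itga6 each differed from the next of these 4 by less than the SD between replicate numbers of at least 1 gene of each pair, and so did Itgb7 and Itgal, whose order was not the same in every group. Itgb1 and Itgb2 thus lay above every alpha subunit in each group.

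**Figure D2:**
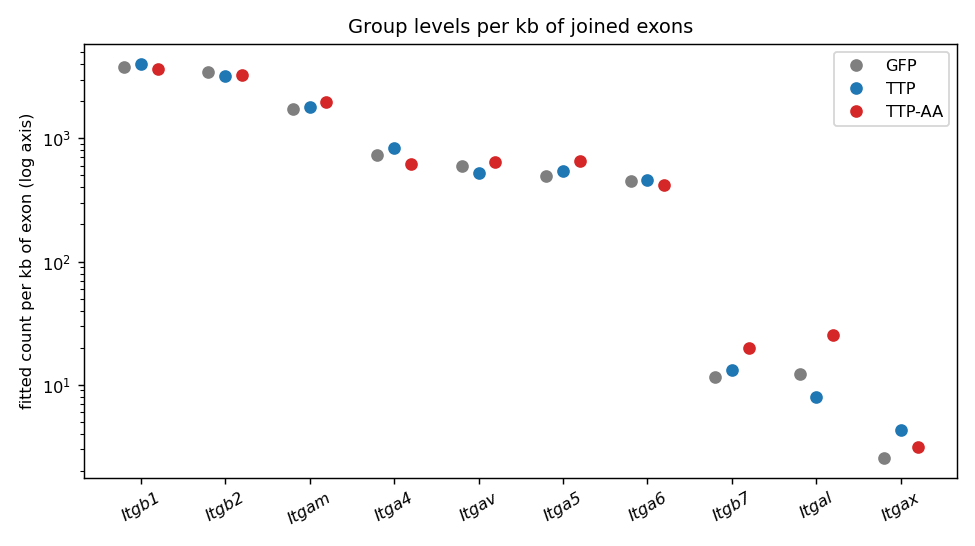
Group levels of the 10 integrin genes as fitted normalised count per kb of joined exons, on a log axis, for GFP (grey), TTP (blue) and TTP-AA (red). Each point is a geometric mean of 3 libraries, without error bar. Itgb1 lay highest at 3816 per kb over all groups, and Itgb7, Itgal and Itgax lay at or under 25.3 per kb in every group.

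Among transcripts of the beta-2 family, the Mac-1 pair of Itgam and Itgb2 was by far the most abundant. Itgam (ENSMUSG00000030786, chr7:128062640-128118491, plus strand) encodes the alpha subunit CD11b of this receptor for the complement fragment iC3b and for fibrinogen. Its fitted counts were 10600, 8839 and 6878 in GFP, 11038, 9138 and 7172 in TTP, and 12184, 10120 and 7902 in TTP-AA. The groups overlapped in every comparison, replicate 1 being the highest and replicate 3 the lowest in each group. The level was 8637 in GFP, 8977 in TTP and 9914 in TTP-AA, a log2 difference of 0.06, 0.20 and 0.14 for TTP vs GFP, TTP-AA vs GFP and TTP-AA vs TTP, each smaller than the SD of 0.31. GENCODE M21 places the gene model Gm49368 on 3450 of the 5024 exon bases of Itgam on the same strand, but that model was not in the deposited table, which used an older annotation.

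Itgb2 (ENSMUSG00000000290, chr10:77530252-77565708, plus strand) encodes CD18, the beta subunit that Itgam, Itgal and Itgax all need to reach the surface. Its counts were 10675, 11765 and 9415 in GFP, 9824, 10749 and 8676 in TTP, and 10072, 11057 and 8879 in TTP-AA. The 3 groups overlapped broadly, with replicate 2 the highest in each. Its log2 differences were -0.12, -0.09 and 0.04 in the order given above, against an SD of 0.16. With a range of 0.12 on the log2 scale over the 3 groups, Itgb2 lay at the 16.8th percentile of all genes, the least varied of the 10 integrins across groups.

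Set per kb, Itgb2 stood at 3465 in GFP against a sum of 1734 for Itgam, Itgax and Itgal, a ratio of 2.00. The ratio was 1.77 in TTP and 1.63 in TTP-AA. These ratios depend on the length used. By transcript length Itgb2 was at 3393 and Itgam at 2475 per kb over all groups, against 3302 and 1823 by joined exons. Itgam made up 99.1% of this sum in GFP, 99.3% in TTP and 98.6% in TTP-AA, so that the differences of Itgal and Itgax given next hardly touched the balance of alpha and beta-2 transcripts.

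Itgal (ENSMUSG00000030830, chr7:127296260-127335138, plus strand) encodes CD11a, the alpha subunit of LFA-1, which binds ICAM proteins on other cells and is known best from lymphocytes. It showed the widest spread over the groups of the 10 genes. Its fitted counts were 117, 56.3 and 79.1 in GFP, 76.4, 36.4 and 51.7 in TTP, and 242, 116 and 164 in TTP-AA. Every TTP-AA library lay above every TTP library, whereas GFP and TTP overlapped, and TTP-AA replicate 2 at 116 fell just under GFP replicate 1 at 117. The level of 52.4 in TTP was 1.54-fold lower than the 80.5 in GFP (log2 difference -0.62), and the 166 in TTP-AA was 2.07-fold higher than GFP (1.05) and 3.17-fold higher than TTP (1.67). All 3 differences exceeded the SD between replicate numbers of 0.53, itself large, with a replicate-number range at the 96.5th percentile of all genes. The mean of the fitted counts of Itgal was 0.820 times the authors' mean normalised count of 127. That ratio was in the lowest 0.712% of the listed genes, where the quartiles were 0.999 and 1.005, so the fitted values followed its counted reads less closely than for most genes. The ratio was also low for Itgax (0.938, the 4.09th percentile) and Itgb7 (0.968, the 8.06th percentile). The T and B cell markers in the table, which summed to 12.9 in GFP, 12.4 in TTP and 13.4 in TTP-AA, had no level above 5.58 in any group, while 5 of the 10 macrophage markers, F4/80 among them, had the same order of groups as Itgal (TTP lowest, TTP-AA highest) and the other 5 did not. What part they have in the Itgal result was not tested.

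Itgax (ENSMUSG00000030789, chr7:128129547-128150657, plus strand) encodes CD11c, the alpha subunit of complement receptor 4 and a classical marker of dendritic cells and some tissue macrophages. It lies 11.1 kb from Itgam, and Itgal lies 727.5 kb from Itgam on the other side. The counts of Itgax were 14.5, 12.7 and 10.0 in GFP, 24.5, 21.3 and 16.9 in TTP, and 17.9, 15.7 and 12.4 in TTP-AA. All 3 TTP libraries lay above all 3 GFP libraries, while TTP-AA overlapped both. Its level of 20.7 in TTP was 1.69-fold that of 12.3 in GFP (log2 difference 0.76, SD 0.27), and with 15.1 TTP-AA stood 0.31 above GFP and 0.45 below TTP on the log2 scale. The order of the groups was therefore TTP, TTP-AA, GFP for Itgax and TTP-AA, GFP, TTP for Itgal. Itgax was listed in 2 of the 3 comparison tables of the authors, that of TTP vs GFP lacking it, and 9.61% of its 50-base stretches also occurred in Itgad, a neighbouring integrin gene at a level between 1.35 and 1.48. The dendritic cell markers Flt3 (249, 240 and 213 in GFP, TTP and TTP-AA), Zbtb46 (38.8, 37.5 and 18.1) and Xcr1 (17.3, 15.1 and 15.8) were not higher in TTP than in GFP.

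**Figure D3:**
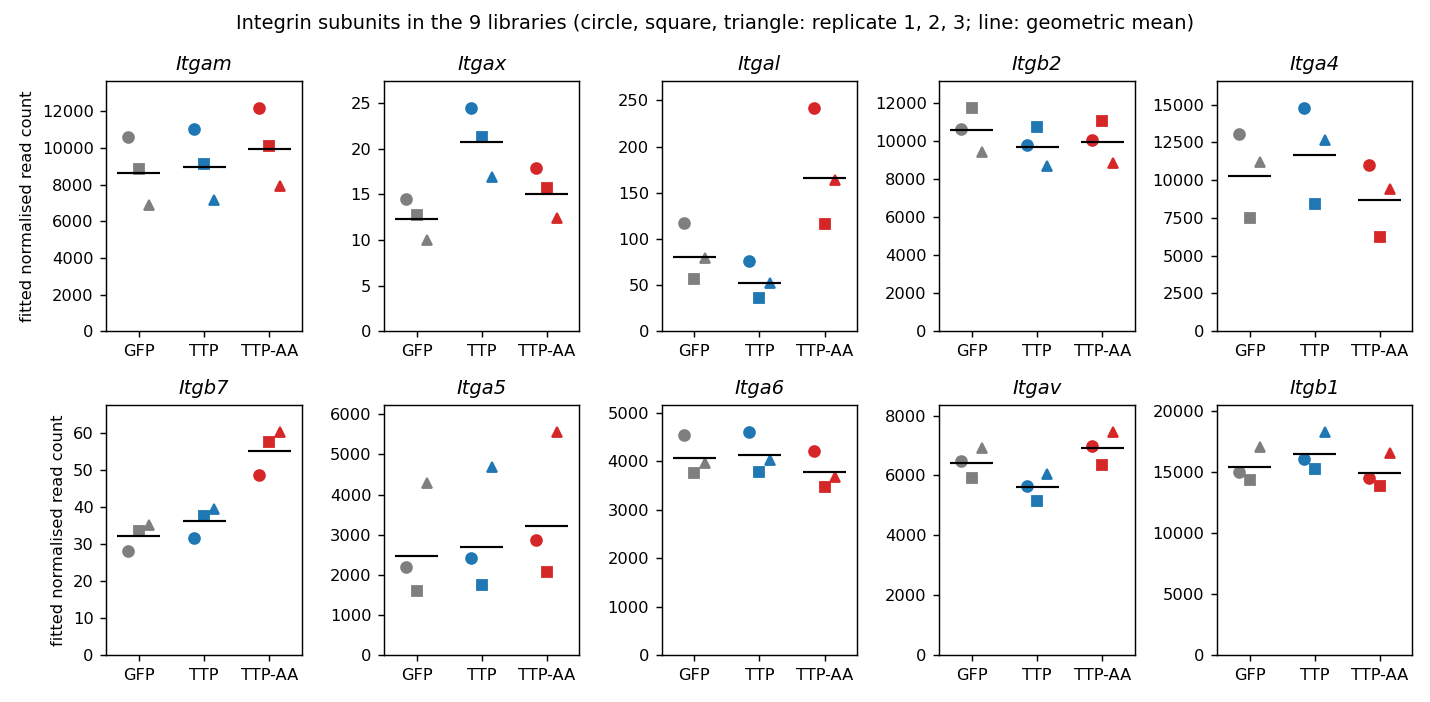
Fitted normalised read counts of the 10 integrin genes in each of the 9 libraries (linear axes from 0), with replicates 1, 2 and 3 as circle, square and triangle and the geometric mean of each group as a line. The pattern of the 3 replicate numbers is the same in all groups because the values are fitted. Itgal in TTP-AA (116 to 242) lay above TTP (36.4 to 76.4), and Itgb7 in TTP-AA (48.6 to 60.5) above both other groups.

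Itga4 (ENSMUSG00000027009, chr2:79255426-79333123, plus strand) encodes CD49d, which joins beta-1 as VLA-4 or beta-7 as a gut homing receptor and binds VCAM-1 and fibronectin. Its counts were 13039, 7464 and 11170 in GFP, 14786, 8404 and 12685 in TTP, and 10993, 6269 and 9414 in TTP-AA. The groups overlapped, since replicate 2 was low in each. The level was 10282 in GFP, 11638 in TTP and 8657 in TTP-AA, so TTP-AA was 1.34-fold below TTP, a log2 difference of -0.43 beside an SD of 0.42. On the opposite strand, Cerkl overlaps 1124 of the 13978 exon bases of Itga4 at a level between 42.3 and 65.1, and whether reads were counted by strand is not given in the sources used here.

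Itgb7 (ENSMUSG00000001281, chr15:102215995-102231944, minus strand) encodes the beta subunit that pairs with the products of Itga4 and Itgae and directs lymphocytes to the gut. Its counts were 28.2, 33.6 and 35.1 in GFP, 31.8, 37.6 and 39.6 in TTP, and 48.6, 57.7 and 60.5 in TTP-AA. The TTP-AA libraries lay above all GFP and all TTP libraries, while GFP and TTP overlapped. The level of 55.3 in TTP-AA was 1.72-fold that of 32.2 in GFP (log2 difference 0.78) and 1.53-fold that of 36.2 in TTP (0.61), against an SD of 0.17. TTP-AA had the highest level of Itgb7 and the lowest of Itga4, for which the groups overlapped, and TTP lay slightly above GFP for both. Itgae, the other partner of Itgb7, was under a mean of 10.

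Itgb1 (ENSMUSG00000025809, chr8:128685654-128733200, plus strand) encodes CD29, the partner of most matrix-binding alpha subunits. Its counts were 14952, 14307 and 17004 in GFP, 16053, 15250 and 18282 in TTP, and 14511, 13831 and 16496 in TTP-AA. The groups overlapped, with log2 differences of 0.10, -0.05 and -0.14 for TTP vs GFP, TTP-AA vs GFP and TTP-AA vs TTP and an SD of 0.13. Per kb it stood at 3769 in GFP, 4038 in TTP and 3652 in TTP-AA, against sums of 2284, 2359 and 2331 for Itga4, Itga5, Itga6 and Itgav, ratios of 1.65, 1.71 and 1.57. The largest single share of that sum was that of Itga4 in GFP and TTP (32.2% and 35.3%) and that of Itga5 in TTP-AA (27.9%). In TTP-AA the levels of Itga5, Itgav and Itga4 were close, at 650, 645 and 619 per kb, and their order depends on the length used: by transcript length Itga5 was the lowest of the 4 over all groups, at 632 per kb against 1036 for Itga4, 960 for Itga6 and 892 for Itgav. The ratios to Itgb1 depend on it too, since Itgb1 was at 4082 per kb by transcript length and 3816 by joined exons.

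Itga5 (ENSMUSG00000000555, chr15:103344286-103366763, minus strand) encodes the alpha subunit of the classical fibronectin receptor. Its counts were 2196, 1591 and 4280 in GFP, 2408, 1732 and 4699 in TTP, and 2861, 2064 and 5572 in TTP-AA. Replicate 3 was far above the others in each group, and the groups overlapped throughout. With a replicate-number range of 1.43 on the log2 scale (98.7th percentile of all genes) and an SD of 0.73, the log2 differences of 0.13, 0.38 and 0.25 were small beside the replicate-number term. The levels were 2464, 2696 and 3204.

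Itga6 (ENSMUSG00000027111, chr2:71745616-71858416, plus strand) encodes a laminin receptor subunit. Its counts were 4547, 3752 and 3966 in GFP, 4616, 3781 and 4032 in TTP, and 4214, 3464 and 3674 in TTP-AA. The groups overlapped and its log2 differences of 0.02, -0.11 and -0.13 lay within the SD of 0.14.

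Itgav (ENSMUSG00000027087, chr2:83724397-83806916, plus strand) encodes the alpha subunit that, with beta-3 or beta-5, binds vitronectin, osteopontin and Mfge8 on apoptotic cells. Its counts were 6470, 5909 and 6918 in GFP, 5665, 5137 and 6066 in TTP, and 6990, 6359 and 7470 in TTP-AA. Every TTP-AA library lay above every TTP library, and GFP, in between, overlapped both. The level of 6925 in TTP-AA was 1.23-fold that of 5610 in TTP, a log2 difference of 0.30 against an SD of 0.11 and under the 1.5-fold limit.

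Counted together, 1 of the 10 genes was higher in TTP than in GFP by at least 1.5-fold (Itgax) and 1 was lower (Itgal), where 1.03% of the 13027 genes with a mean of at least 10 were higher and 2.88% lower. In TTP-AA vs GFP, 2 were higher (Itgal and Itgb7) and 0 lower, beside 4.23% and 2.00% of all genes. In TTP-AA vs TTP the same 2 were higher and 0 lower, beside 6.80% and 3.00%. TTP-AA and TTP were each compared with the same GFP libraries, and both TTP-AA comparisons share the TTP-AA libraries. Groups did not overlap for 1 gene in TTP vs GFP (Itgax), 1 in TTP-AA vs GFP (Itgb7) and 3 in TTP-AA vs TTP (Itgal, Itgb7 and Itgav), where 19.6%, 24.9% and 30.7% of all genes did not overlap. The shares of the 10 genes that did not overlap were thus near or under the background, and with so few genes a single call past 1.5-fold cannot be read as a share above it. The median log2 difference of the 10 genes was 0.08, 0.15 and 0.09 in the 3 comparisons against medians of 0.00 over all genes, and the median size regardless of sign was 0.15, 0.22 and 0.28 against 0.13, 0.16 and 0.19.

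The 3 integrins past 1.5-fold were also the 3 rarest. Of the 3436 genes with a mean from 10 to 200, where Itgal, Itgax and Itgb7 lie, 8.32%, 12.8% and 19.7% passed 1.5-fold in TTP vs GFP, TTP-AA vs GFP and TTP-AA vs TTP. Of the 4241 genes with a mean of 2000 or more, where the other 7 integrins lie, 0.755%, 1.77% and 3.42% did. None of these 7 passed in any comparison.

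**Figure D4:**
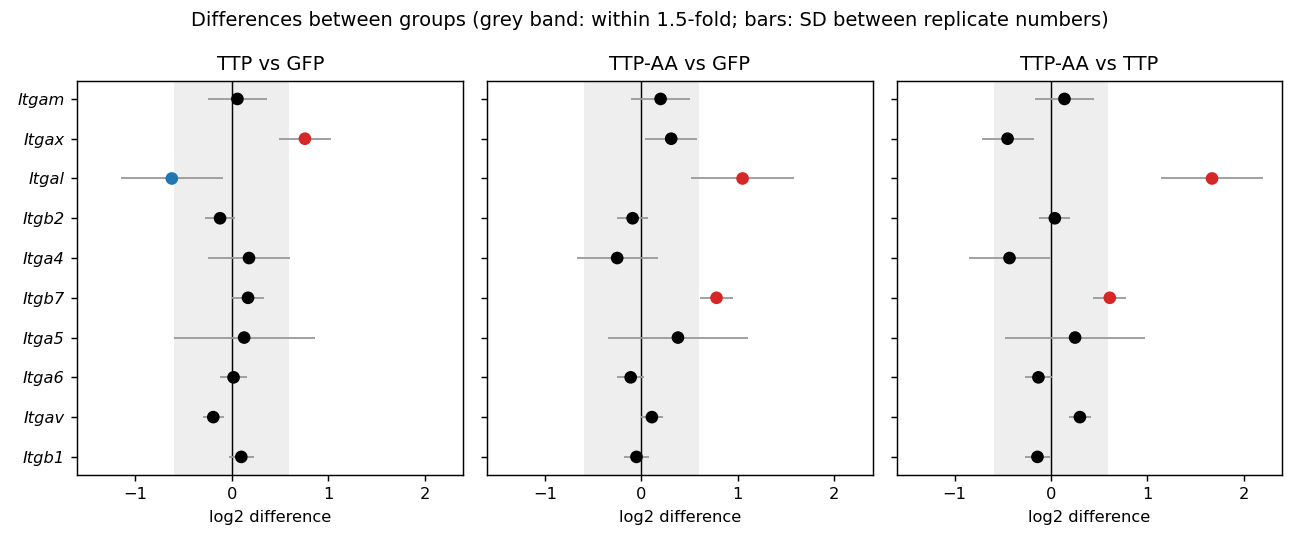
Log2 differences of the geometric mean levels of the 10 integrin genes in the 3 comparisons. Bars show the SD between replicate numbers (n = 3), which the groups share, and the grey band marks differences within 1.5-fold, with red points higher and blue points lower than that. The shared term drops out of the plotted differences, so the bars are not their error. Itgal ran from -0.62 in TTP vs GFP to 1.67 in TTP-AA vs TTP.

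For each gene, the range over the 3 groups can be set beside the range over the 3 replicate numbers. The group range was the larger for 4 of the 10 integrins (40.0%: Itgax, Itgal, Itgb7 and Itgav), as for 5191 of the 13027 genes (39.8%). Over all genes the median replicate-number range was 0.32 and the median group range 0.25 on the log2 scale. Itgal, with a group range of 1.67, was at the 98.7th percentile of all genes, Itgb7 (0.78) at the 93.4th and Itgax (0.76) at the 92.9th. Itga5 and Itga4, with replicate-number ranges of 1.43 and 0.81, were at the 98.7th and 92.2nd percentiles of that other measure.

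**Figure D5:**
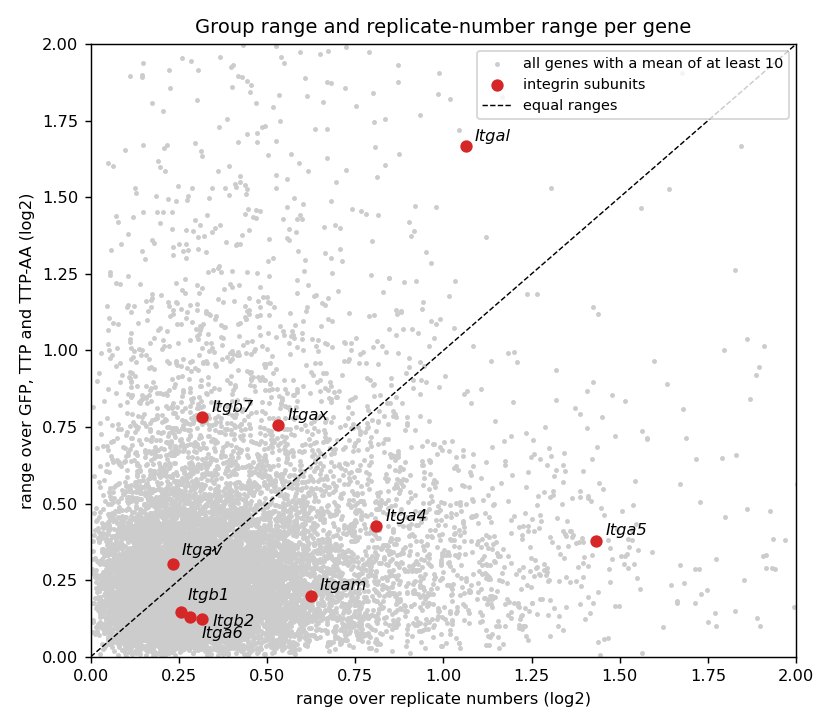
Range over the 3 groups against range over the 3 replicate numbers, both on the log2 scale, for the 10 integrin genes (red) and the genes with a mean of at least 10 (grey), drawn up to 2 on each axis. The dashed line marks equal ranges. Itgal, Itgb7, Itgax and Itgav lay above the line, and Itga5 lay farthest to the right at 1.43.

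Of the other 16 integrin subunit genes 15 were in the table and only 6 reached a mean of 10. By 1.5-fold, 1 of these 6 was lower in TTP than in GFP, 1 was higher and 2 were lower in TTP-AA than in GFP, and 1 exceeded its TTP level in TTP-AA. Over all genes 2.88% were lower in TTP vs GFP, 4.23% higher and 2.00% lower in TTP-AA vs GFP, and 6.80% higher in TTP-AA vs TTP. Of genes with a mean from 10 to 200, 8.32%, 12.8% and 19.7% passed in these comparisons in either direction. The one abundant subunit among the 6 was Itgb5, a beta partner of the Itgav product, at 1951 in GFP, 2335 in TTP and 3547 in TTP-AA, or 0.86 above GFP and 0.60 above TTP on the log2 scale in TTP-AA. The lower subunits were rare: Itga7 stood at 54.9, 25.1 and 32.3, and Itgb3, the other well-known beta partner of Itgav, at 36.7, 28.7 and 24.2.

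The genes of the proteins that open integrins from inside are counted beside the same shares of all genes as above. Of 25 activation and adhesion complex genes 21 reached a mean of 10, of which 1 was higher in TTP than in GFP, 2 were higher in TTP-AA than in GFP, and between TTP-AA and TTP 2 were higher and 1 lower in TTP-AA. These were Tln2, a second talin (474, 713 and 360 in GFP, TTP and TTP-AA), Bcar1, an adaptor of focal adhesions (136, 141 and 214), and Lims2, an adaptor of the integrin-linked kinase (263, 224 and 436). The far more abundant talin gene Tln1 (14928, 15692 and 13167) and the kindlin gene Fermt3 (9530, 10376 and 9862) stayed within 1.5-fold, and their groups overlapped. Zyx, an actin-binding protein of mature adhesions, had levels of 420, 410 and 584 and did not pass 1.5-fold. Among 14 genes of Rap1, the small GTPase that calls talin to integrins, and of inhibitors of integrin activation, 0 of the 13 with a mean of at least 10 passed 1.5-fold in any comparison. Rap1b, with levels of 17389, 13866 and 19022, had the widest differences of this list, up to 0.46 between TTP-AA and TTP. Rap1a stood at 3371, 2974 and 2566, the integrin tail-binding inhibitor Itgb1bp1 at 1928, 1828 and 2427, and Cyth1, which binds the beta-2 tail, at 1655, 1435 and 1681.

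The 11 genes of Src-family and Syk signalling downstream of integrins all reached a mean of 10. In TTP-AA vs GFP 2 of them were at least 1.5-fold higher and 0 lower, beside 4.23% and 2.00% of all genes. The higher ones were Src, at 1532 in GFP, 2298 in TTP and 2737 in TTP-AA, and Fgr, a myeloid member of the family, at 17.6, 21.3 and 37.5. Src also passed 1.5-fold in TTP vs GFP, with a log2 difference of 0.59. Syk, at 5183, 4896 and 6754, and Vav3, at 2510, 2378 and 2905, stayed within 1.5-fold.

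Of 21 ligand and counter-receptor genes, 19 were in the table and 9 reached a mean of 10. Among them 1 was higher in TTP than in GFP, 3 were higher in TTP-AA than in GFP, and between TTP-AA and TTP 3 were higher and 1 lower in TTP-AA. Over all genes 1.03% were higher in TTP vs GFP, 4.23% higher in TTP-AA vs GFP, and 6.80% higher and 3.00% lower in TTP-AA vs TTP. With so few ligand genes the counts were not read as shares above these. Jam3, a junction protein bound by the Mac-1 pair, was at 108 in GFP, 314 in TTP and 114 in TTP-AA, log2 differences of 1.54, 0.08 and -1.46. C3, the source of the iC3b fragment bound by the Itgam product, was at 748, 727 and 1413, and Mfge8, a bridge between Itgav receptors and dying cells, at 2021, 2390 and 3427. F11r, another junction protein and a ligand of LFA-1, was rare at 18.3, 22.1 and 35.6. Icam2, also a ligand of LFA-1, stood at 459, 379 and 642, and its TTP-AA level was 0.76 above that of TTP on the log2 scale. The order of groups was that of Itgal for Icam2 but not for the other ICAM genes. Icam1, far more abundant, was at 13999, 15194 and 17325, and Icam4 at 11.7, 12.8 and 13.5. In both, as in F11r, TTP lay above GFP.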

How the data were processed

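Total RNA depleted of ribosomal RNA was sequenced as 50-base single reads. Per the submitters' processing notes and the methods, the authors trimmed reads (Trim Galore), aligned them to GRCm38 (TopHat, whose version the notes and the methods give differently, reporting at most 2 placements per read), counted them per Ensembl gene (HTSeq) and fitted DESeq2 1.6.3 with library date and condition. The deposited table holds the fitted signal (fitted read count) per gene and library, not yet scaled to a common depth. From the authors' 3 comparison tables only gene names and the mean normalised count were used. Their fold changes, standard errors, test statistics and p-values were not used.

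Groups and replicate numbers came from sample titles. Repeated identifiers (10) were dropped, libraries were scaled by the median of ratios, and genes with a mean of at least 10 were compared by the geometric mean of 3 libraries, with no pseudocount (Python 3.11.15, numpy 2.4.6, pandas 2.3.3). The steps were tested on simulated data. A limma fit would have needed scatter between libraries and could not be made. Levels per kb, positions and 3'UTRs used GENCODE M21 on GRCm38, a later annotation than that counted. The alternatives were other scalings, pseudocounts, folds, filters and lengths, centring by chromosome, and leaving out each replicate number.

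The 10 genes and the lists were chosen with earlier results of these data known. Named were all 10 integrin genes and, from each other list, at most the 4 genes with a mean of at least 50 that differed most. Itga7, Itgb3, Fgr, F11r, Mertk, Zbtb46, Xcr1, Itgad and Itgae lie outside this rule and were named after their values were seen. The same holds for Icam1, Icam4, Tln1 and Fermt3. The 3 libraries of a group share 1 cell line, and whether they came from separate cultures is not given in the sources used here. A result from the kinase list is not reported here.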

Additional observations from a re-analysis of the deposited data

How the results depend on the processing

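Of 294 recomputed log2 differences of the 10 integrin genes, 293 stayed within 1 SD between replicate numbers of their reported value. The exception was Itgax in TTP vs GFP, 0.46 with a pseudocount of 10. The 60 recomputed levels also stayed within that SD. Much of this follows from the fitted values. Leaving out a replicate number hardly moves them, and another scaling or filter shifts all genes of a comparison nearly alike. As the SD is not the error of a difference, these counts do not measure how well the differences hold. None of the differences reported past 1.5-fold changed sign, and the signs of smaller ones were not counted. With each chromosome centred on its median, Itgb2 moved from -0.12 to 0.01 in TTP vs GFP and from 0.04 to -0.12 in TTP-AA vs TTP. The 616 genes of chromosome 10, where Itgb2 lies, had medians of -0.13 and 0.16 in these comparisons. Chromosome 15, with Itgb7 and Itga5, had a median of -0.10 in TTP-AA vs TTP, where Itgb7 moved from 0.61 to 0.71 and Itga5 from 0.25 to 0.35. With a pseudocount of 10 the number of integrins past 1.5-fold was 0 in TTP vs GFP and 1 in TTP-AA vs TTP (Itgal). At the lower fold limit tried, 4 passed in TTP-AA vs TTP (Itgax, Itgal, Itga4 and Itgb7). At a 2-fold limit 0, 1 and 1 passed in TTP vs GFP, TTP-AA vs GFP and TTP-AA vs TTP, and among genes with a mean of at least 50 the counts were 1, 1 and 1, in each case Itgal where 1 passed; the stricter limit and filter account for this by their construction. Under upper-quartile scaling 2 integrins did not overlap between TTP-AA and GFP, and the cause was not tested. By transcript length in place of joined exons, 5 of 10 ranks moved: Itga6 to 5, Itgav to 6, Itga5 to 7, Itgal to 8 and Itgb7 to 9. Leaving out replicate number 1, 2 or 3 gave 2 to 2 genes past 1.5-fold in each comparison, which follows from the fitted values and cannot show the weight of a single library. No paired analysis was possible because fitted means have no residual, and the authors' model already held a term that splits the libraries by replicate number; limma without that term was not run for the same reason. Depth limits Itgax most, with 10.0 to 24.5 fitted counts per library.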

Other observations

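The 10 integrin genes were also split by whether their 3'UTR held TATTTAT, after their values had been seen. The 6 with the motif (Itgb2, Itga4, Itga5, Itga6, Itgav and Itgb1) had log2 differences from -0.19 to 0.18 in TTP vs GFP, from -0.25 to 0.38 in TTP-AA vs GFP and from -0.43 to 0.30 in TTP-AA vs TTP, and 0 of them passed 1.5-fold in any comparison. The 4 without it (Itgam, Itgax, Itgal and Itgb7) ran from -0.62 to 0.76, from 0.20 to 1.05 and from -0.45 to 1.67, and 2 passed in each. Among all coding genes with a mean of at least 10, 4.41%, 6.54% and 9.40% of those with the motif and 4.03%, 6.09% and 10.0% of those without it passed 1.5-fold in the same comparisons. The 3 genes that passed were also the rare ones of the 10, and the part of their level in this split was not tested.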
